A study of Mus musculus with 6 samples.

Results

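The genes of the proteins that build the 2 ribosomes of the cell, the cytoplasmic and the mitochondrial one, were compared between fetal mouse lungs of 2 genotypes. Members were taken by symbol: every probe set with a single gene symbol made of Rpl, Rps or Rplp, or of Mrpl or Mrps, and a digit, without the Rps6k kinases. This gave 261 of the 34945 probe sets with 1 symbol, and 126 of 18193 genes, of which 50 were cytoplasmic and 76 mitochondrial. The symbol rule also takes in Rps19bp1, which encodes a protein that binds Rps19 and is no ribosomal subunit, Mrps36, whose product is now placed in a mitochondrial dehydrogenase complex, and the transcribed pseudogenes Rps4l and Rps15a-ps6. It leaves out a few subunits with other names, which were compared separately.

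Whole lungs were taken at stage E18.5, shortly before birth, and each of the 6 Affymetrix arrays carried the RNA of one lung sample. One group is labelled Nfib f/f, Dermo1-Cre, and the control group Nfib f/f, with 3 biological replicates in each group. All 6 therefore carried floxed alleles of Nfib, which encodes the transcription factor nuclear factor I B, and the labels give Cre recombinase, driven from the mesenchymal gene Dermo1 (Twist2), to the first group alone. Nfib signal was 11.24, 11.16 and 11.49 on the log2 scale in the Cre-labelled lungs and 10.24, 10.32 and 10.17 in the control-labelled lungs. It was thus higher in all 3 lungs labelled as carrying Cre, and no source used here places the probes relative to the deleted part, so the array does not check the genotypes and the groups are called by their labels.

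The lung markers were present on every array, with a mean log2 signal of 10.64 to 10.70 in Cre-labelled and 10.58 to 10.70 in control-labelled lungs over 6 mesenchymal markers, and of 8.97 to 9.23 in Cre-labelled and 9.55 to 9.90 in control-labelled lungs over 8 epithelial markers. Of the 8 epithelial markers, 7 had lower means in Cre-labelled lungs and 1 a higher mean, by 0.32, with groups that did not overlap. Aqp5, a water channel, and Sftpb, a surfactant protein, were the 2 of 8 called, both lower in Cre-labelled lungs (log2 differences -1.49 ± 0.23 SE and -1.27 ± 0.20 SE, limma adjusted p 0.012 and 0.015). Of all tested probe sets, 2.16% were called lower. Leukocyte markers had a mean of 8.05 to 8.23 in Cre-labelled and 8.45 to 8.81 in control-labelled lungs, and 2 of 5, Lyz2 and S100a8, were called lower (-0.88 ± 0.14 SE and -0.66 ± 0.14 SE, limma adjusted p 0.015 and 0.036). Without 1 array the calls held in 5 of 6 fits for Aqp5 and for Sftpb, both lost without control-labelled replicate 3, in 3 of 6 for Lyz2 and in 0 of 6 for S100a8. Other tissue was also present: the mean of 10 cardiac muscle markers was 6.17, 7.08 and 8.05 in Cre-labelled and 9.33, 8.56 and 7.59 in control-labelled lungs, skeletal muscle markers stood at 7.98 on control-labelled array 1 and at 3.56 to 4.64 on the other 5 arrays, and liver markers at 4.76, 3.68 and 6.0 in Cre-labelled and 2.90, 6.91 and 5.44 in control-labelled lungs. The part of these cells and tissues in the results was not tested beyond a fit with the cardiac mean as a covariate. In RNA of a whole lung, fewer cells that express a gene and less RNA of it per cell cannot be told apart.

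The cytoplasmic ribosome makes nearly all proteins of a cell. Its proteins are joined to ribosomal RNA in the nucleolus, and their mRNAs are among the most abundant of any growing cell; most of them start with a run of pyrimidines, the terminal oligopyrimidine (TOP) tract, through which mTOR and Larp1 regulate their translation together. The mitochondrial ribosome makes the few membrane proteins of the respiratory chain and ATP synthase that mitochondrial DNA encodes. Its own proteins are encoded in the nucleus, made in the cytoplasm and imported.

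No cytoplasmic gene passed the test, and of the mitochondrial genes Mrps34 alone did. Each gene was represented by its probe set with the highest mean signal, and 46 cytoplasmic and all 76 mitochondrial genes passed the filter on low signals. Of the 46 cytoplasmic genes none was called at an adjusted p of 0.05 in limma, with 3 higher and 0 lower at an unadjusted p of 0.05, and the lowest adjusted p was 0.13. Of the 76 mitochondrial genes 1 was called, and at an unadjusted p of 0.05 the counts were 2 higher and 5 lower. Among all 27022 tested probe sets 3.56% were called, 1.41% higher and 2.16% lower, and at an unadjusted p of 0.05 the shares were 9.5% higher and 9.97% lower, so the members' counts lay below these shares. The median log2 difference, Cre-labelled minus control-labelled, was -0.05 over the cytoplasmic genes (quartiles -0.09 and 0.05), 0.03 over the mitochondrial genes (quartiles -0.10 and 0.12) and 0.00 over all tested probe sets.

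**Figure D1:**
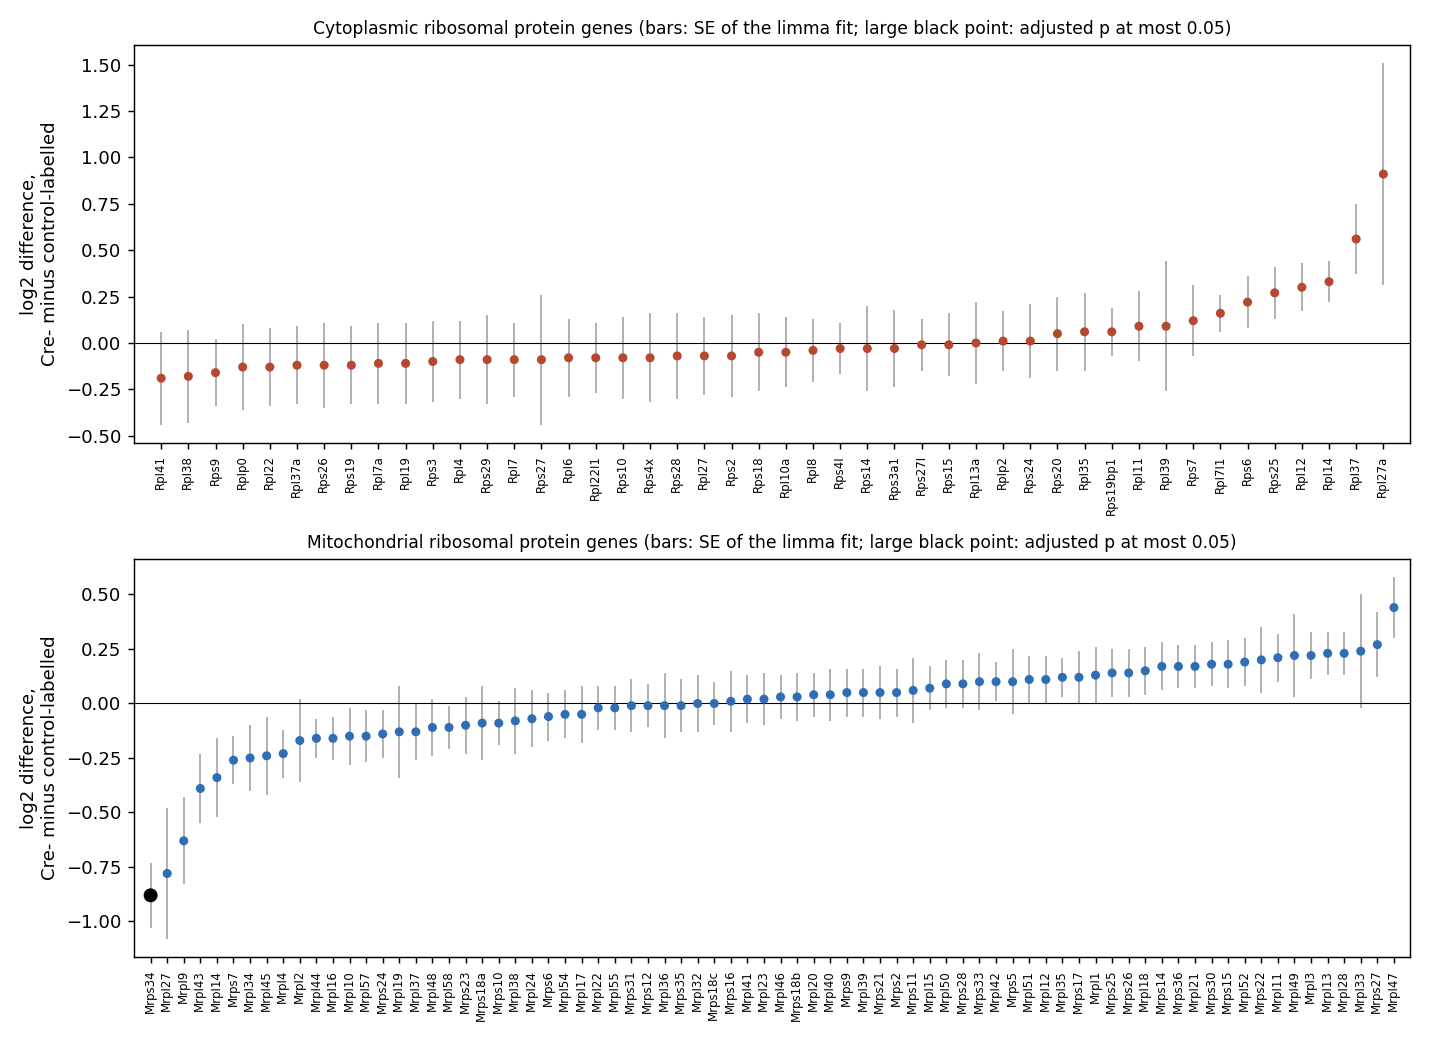
Log2 difference in signal (Cre-labelled minus control-labelled, y axis) of each tested cytoplasmic (top, n = 46) and mitochondrial (bottom, n = 76) ribosomal protein gene, ordered by size, with bars of 1 SE of the limma fit on 3 against 3 arrays. Most points lie within 0.2 of 0 (40 of 46 and 59 of 76), and Mrps34, drawn as the large black point, is the called gene.

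Within the cytoplasmic ribosome both subunits gave much the same picture. The large subunit had a median log2 difference of -0.06 over 24 tested genes and the small subunit one of -0.04 over 22. The group means were higher in Cre-labelled lungs for 15 and lower for 31 of the 46 genes. The same held over single probe sets: 0 of all 94 tested cytoplasmic probe sets were called by limma (8 higher and 0 lower at an unadjusted p of 0.05, near the 9.5% of all probe sets in the higher direction), and 0 of 104 further tested probe sets that carry several symbols including a cytoplasmic one (6 higher and 0 lower).

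The cytoplasmic genes with strong signals moved together from array to array, and this movement did not follow the labels. For the 35 genes with a mean log2 signal of at least 11, a limit chosen after the values were seen, the median signal was 12.71, 12.61 and 12.97 on the Cre-labelled arrays and 12.47, 12.81 and 13.25 on the control-labelled arrays. Control-labelled array 3 was the highest and array 1 the lowest of the controls for 35 of these 35 genes. Their distance was 0.42 to 1.01 with a median of 0.76, and all 3 Cre-labelled values lay between the lowest and the highest control for 30 of the 35.

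Rps29, a small-subunit protein that had the highest mean signal of the cytoplasmic members, shows the order of the arrays. It read 13.12, 12.99 and 13.47 in Cre-labelled lungs and 12.87, 13.24 and 13.75 in control-labelled lungs. Rpl13a, a large-subunit protein also known for a role outside the ribosome in silencing inflammatory mRNAs, read 13.09, 12.93 and 13.46 in Cre-labelled and 12.77, 13.19 and 13.53 in control-labelled lungs. Rpl38, which in mice is needed for translation of a subset of Hox mRNAs, read 12.99, 12.86 and 13.31 in Cre-labelled and 12.78, 13.13 and 13.79 in control-labelled lungs. By these probe sets, the brightest of each gene, the third array of each group had the highest signal in all 3 genes. The first control-labelled array was the dimmest, and the groups overlapped. Rps3a1 and Rps10, both of the small subunit, followed much the same order. Rps3a1 averaged 13.09 ± 0.26 in Cre-labelled and 13.13 ± 0.35 in control-labelled lungs, and Rps10 13.00 ± 0.23 in Cre-labelled and 13.08 ± 0.43 in control-labelled lungs (SD, n = 3 each). The log2 differences of these 5 genes lay between -0.18 ± 0.25 SE for Rpl38 and -0.00 ± 0.22 SE for Rpl13a, with limma adjusted p from 0.76 to 1.0. A weaker probe set of Rpl13a, with a mean signal of 11.48, had another order. It read 11.56, 11.64 and 11.86 in Cre-labelled and 11.25, 11.47 and 11.08 in control-labelled lungs. Its groups did not overlap and control-labelled array 3 was the lowest (0.42 ± 0.14 SE, limma adjusted p = 0.13). The remaining Rpl13a probe sets gave -0.13 and 0.12 with overlapping groups.

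A similar order of the arrays ran through the top of the signal range. The log2 signal that 0.5% of all probe sets exceed was 12.16, 12.13 and 12.39 on the Cre-labelled arrays and 11.98, 12.25 and 12.53 on the control-labelled arrays. Cytoplasmic ribosomal proteins make up much of this range: of the 100 probe sets with the highest mean signal, 32 were single-symbol cytoplasmic members, 51 carried several symbols including a cytoplasmic one, and 0 were mitochondrial members. Over the 712 other tested probe sets with a mean signal of at least 11, the median deviation from each probe set's own mean was -0.06, -0.02 and 0.11 in Cre-labelled and -0.17, 0.02 and 0.13 in control-labelled lungs. Over the 35 cytoplasmic genes it was -0.10, -0.18 and 0.18 in Cre-labelled and -0.34, -0.01 and 0.45 in control-labelled lungs. The third array of each group was the highest and control-labelled array 1 the lowest of all 6 in both sets, while Cre-labelled arrays 1 and 2 changed places, and the range was wider for the cytoplasmic genes. After quantile normalization the median deviation of the 35 cytoplasmic genes was 0.01, 0.01 and -0.02 in Cre-labelled and 0.00, 0.02 and -0.03 in control-labelled lungs. This method gives every array the same distribution of signals. Since these genes fill much of its top, small deviations were built in and do not show where the order of the arrays came from. The control probe sets for both ends of 2 transcripts, a sign of RNA quality, were also highest on the third array of each group: the log2 signal at the 3' end minus that at the 5' end was 0.41, 0.44 and 0.83 in Cre-labelled and 0.35, 0.37 and 0.52 in control-labelled lungs for Actb, and -0.34, -0.32 and 0.07 in Cre-labelled and -0.16, -0.20 and -0.05 in control-labelled lungs for Gapdh. Their part in the signals of the cytoplasmic genes was not tested.

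The mitochondrial genes lay much closer together from array to array. Their median deviation was 0.00, 0.10 and -0.06 on the Cre-labelled arrays and -0.02, 0.04 and -0.05 on the control-labelled arrays. Over all 46 cytoplasmic genes it was -0.10, -0.15 and 0.19 on the Cre-labelled arrays and -0.33, -0.01 and 0.43 on the control-labelled arrays. The pooled SD of these medians between arrays of a group was 0.07 for the mitochondrial and 0.30 for the cytoplasmic genes. The mitochondrial median difference exceeded the cytoplasmic one by 0.08, which is smaller than the SD of 0.34 of that contrast between arrays of a group. As a share of the summed linear signal, single-symbol cytoplasmic probe sets took 4.27%, 4.12% and 5.07% in Cre-labelled lungs against 3.77%, 4.46% and 5.58% in control-labelled lungs. Mitochondrial probe sets took 0.53%, 0.58% and 0.50% in Cre-labelled and 0.53%, 0.54% and 0.48% in control-labelled lungs. These are shares of array signal and not of mRNA molecules, since probe sets differ in how brightly they report the same amount of RNA.

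**Figure D2:**
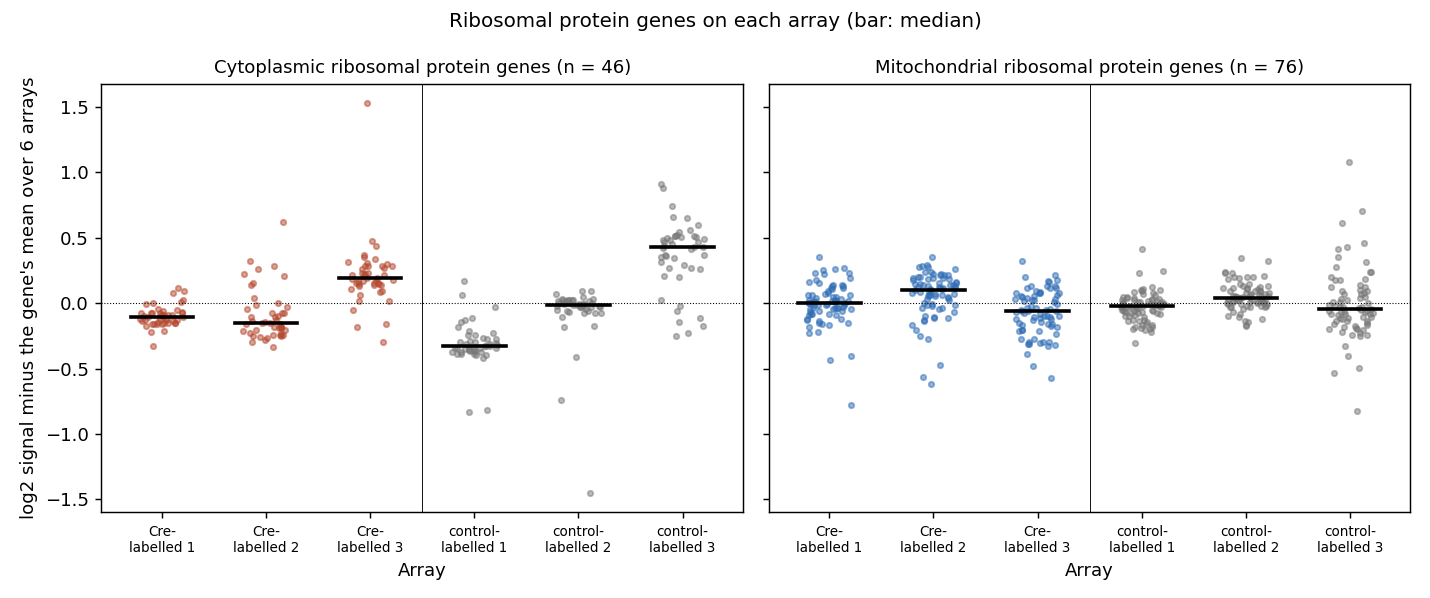
Deviation of each gene's log2 signal from its own mean over the 6 arrays (y axis), by array (x axis), for the 46 tested cytoplasmic (left) and 76 tested mitochondrial (right) genes, with bars at the median. The cytoplasmic medians run from -0.33 to 0.43 and order the arrays across both groups, while the mitochondrial medians stay between -0.06 and 0.10.

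The TOP tract, which sets many cytoplasmic ribosomal protein mRNAs apart, can be seen in the RefSeq start sites of these genes (mouse build GRCm38.p6). The table held a start for 43 of 50 cytoplasmic and 67 of 76 mitochondrial members. Each line below spans 10 bases before the annotated start and 20 bases from it, in the direction of transcription. The capitals mark a pyrimidine run that opens with a C within 5 bases of the start and goes on for at least 4 more pyrimidines; a line with no capitals has no such run. The first lines show 3 of the cytoplasmic genes with the highest signals and the 2 cytoplasmic genes whose groups did not overlap. The others show mitochondrial genes with groups that did not overlap. Overlap was judged by the brightest probe set of each gene.
Rpl13a (chr7:45128726-45128755, minus strand): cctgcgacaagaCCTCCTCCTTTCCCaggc
Rpl38 (chr11:114668570-114668599, plus strand): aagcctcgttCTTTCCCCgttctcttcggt
Rps10 (chr17:27635225-27635254, minus strand): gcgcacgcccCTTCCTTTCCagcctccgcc
Rpl14 (chr9:120571507-120571536, plus strand): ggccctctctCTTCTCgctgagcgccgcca
Rpl12 (chr2:32961702-32961731, plus strand): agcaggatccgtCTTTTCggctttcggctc
Mrps7 (chr11:115604130-115604159, plus strand): gcagcCCTCCgaggtcctgacagcggccaa
Mrpl44 (chr1:79776008-79776037, plus strand): ctccctcttcggtgtCCTCCagcgttcagg
Mrpl9 (chr3:94443326-94443355, plus strand): tcttccgcctgtccgctccgctgtcatggc
Mrpl47 (chr3:32736736-32736765, minus strand): cgacactgtgggtctccattagaaacatgg
Mrpl28 (chr17:26123493-26123522, plus strand): cacgttcggtgacgctattccggttccggg

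Such a run was present in 20 of 43 cytoplasmic members (46.5%), 17 of 67 mitochondrial members (25.4%) and 3767 of 17492 protein-coding genes in the table (21.5%). The annotated start can lie some bases from the start used in lung, so a missing run says only that these letters are not at the annotated position. In the 300 bases from 250 before to 50 after the start, searched on both strands, CCGGAAG, the core bound by ETS factors and GABP, was found in 46.5% of cytoplasmic, 37.3% of mitochondrial and 12.9% of all promoters. CAAGATGG, a YY1 motif, was found in 4.7%, 13.4% and 2.5%, and GCGCATGC, an NRF1 motif, in 4.7%, 11.9% and 3.9%. The E box CACGTG, which Myc family factors bind, was found in 9.3%, 7.5% and 8.9%. The nuclear factor I single-arm site TTGGCA was found in 9.3%, 11.9% and 15.2%, and the full palindrome (TTGGC, any 5 bases, GCCAA) in 0 member promoters and in 7 of all 17492. These shares describe letters and say nothing of binding.

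Below the bright cytoplasmic genes stood 11 tested genes with weaker signals, and their differences were spread more widely. Their median log2 difference was 0.22 and 9 of the 11 group means were higher in Cre-labelled lungs, while it was -0.08 for the 35 bright genes, of which 29 had lower means. Both counts describe sets divided at a limit that was set after the values were seen. The 11 include Rps19bp1, the pseudogene Rps4l and the paralog Rpl7l1. Weaker probe sets of bright genes also differed from the brightest one: 0.56 and 0.46 beside 0.05 for Rps20, and 0.31 and 0.28 beside -0.16 for Rps9. Some of these were bright themselves. The one at 0.28 for Rps9 had a mean signal of 11.95, and one of Rpl13a at 11.48 gave 0.42 beside -0.00. Others went lower: -0.23 beside -0.01 for Rps15, at a mean signal of 11.98, and -0.22 beside -0.12 for Rpl37a. Over all 94 tested cytoplasmic probe sets, 42 means were higher and 52 lower in Cre-labelled lungs. Differences are thus also found between probe sets of the same gene, and the contrast cannot be read as one between weakly and strongly expressed genes.

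By the brightest probe set of each gene, Rpl14 and Rpl12 were the 2 tested cytoplasmic genes whose groups did not overlap. Both were higher in Cre-labelled lungs, and no gene had groups that lay apart in the lower direction. Over all 94 tested cytoplasmic probe sets the groups lay apart for 7 in the higher and 0 in the lower direction. These included weaker probe sets of Rpl13a, Rpl22, Rps20 and Rps9. Of all tested probe sets, 13.3% had groups that lay apart in the higher and 12.8% in the lower direction, so these counts are below the shares over the whole array. Rpl14, a large-subunit protein, read 8.06, 8.34 and 8.27 in Cre-labelled lungs and 7.91, 7.88 and 7.89 in control-labelled lungs (log2 difference 0.33 ± 0.11 SE, limma adjusted p = 0.13). The control-labelled values had an SD of 0.02, and all 3 Cre-labelled values lay above them. Rpl12, which sits at the base of the stalk that receives translation factors, read 8.07, 8.39 and 8.20 in Cre-labelled and 7.73, 8.0 and 8.05 in control-labelled lungs (0.30 ± 0.13 SE, limma adjusted p = 0.25).

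Rpl37 and Rpl27a had the highest differences among the cytoplasmic genes and were named for that after the values were seen. Rpl37, a zinc-binding large-subunit protein, read 9.79, 10.62 and 10.45 in Cre-labelled lungs and 9.83, 9.59 and 9.75 in control-labelled lungs (0.56 ± 0.19 SE, limma adjusted p = 0.14). Its first Cre-labelled array lay among the controls, and without it the difference was 0.81 with a limma adjusted p of 0.031. Rpl27a read 5.71, 5.78 and 7.36 in Cre-labelled and 5.01, 4.38 and 6.74 in control-labelled lungs, so that the third array of each group was high and the fit gave 0.91 ± 0.60 SE (limma adjusted p = 0.46). Without 1 array this difference ran from 0.37, without Cre-labelled replicate 3, to 1.59, without control-labelled replicate 3, and it was 0.41 without control-labelled replicate 2. Rps6, named for its role after the values were seen, is the small-subunit protein that S6 kinases phosphorylate, and read 8.34, 8.82 and 8.84 in Cre-labelled and 8.44, 8.45 and 8.44 in control-labelled lungs (0.22 ± 0.14 SE, limma adjusted p = 0.43).

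**Figure D3:**
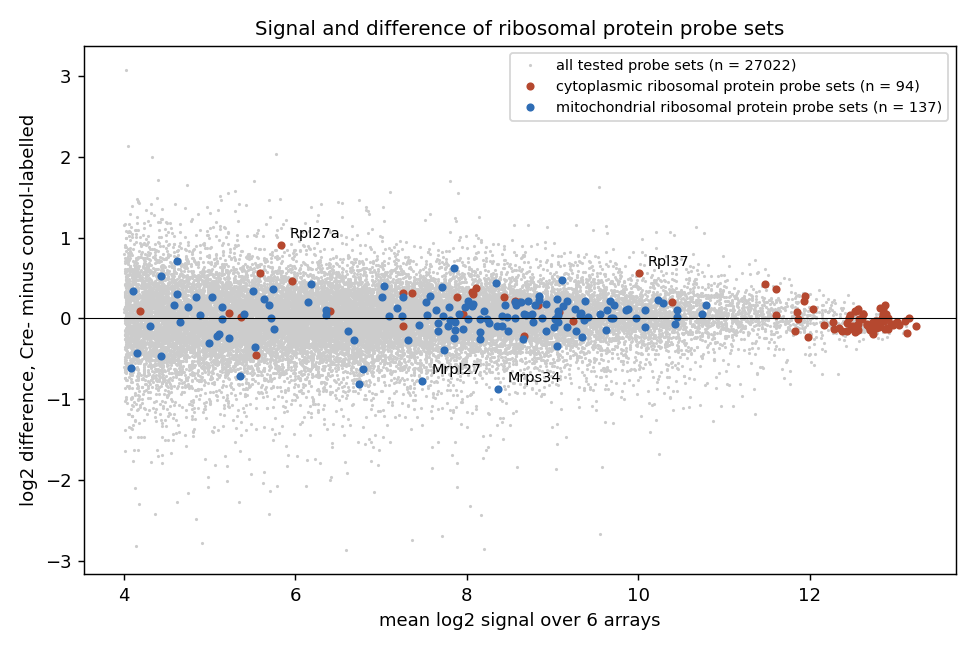
Log2 difference (Cre-labelled minus control-labelled, y axis) against the mean log2 signal over 6 arrays (x axis) for all 27022 tested probe sets (grey) and the 94 cytoplasmic (red) and 137 mitochondrial (blue) ones, with 4 genes named. Most cytoplasmic probe sets sit at the right edge close to 0, and the mitochondrial ones lie in the middle of the signal range.

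Several members have a paralog whose symbol ends in l or l1, and these were set beside their parent genes. Rpl22l1, a paralog that in mice can replace Rpl22 when that gene is lost, had a log2 difference of -0.08 ± 0.19 SE and Rpl22 one of -0.13 ± 0.21 SE. Rps27l, known in humans as a p53 target, had a difference of -0.01 ± 0.14 SE and Rps27 one of -0.09 ± 0.35 SE. Rpl7l1 and Rpl7 had log2 differences of 0.16 ± 0.10 SE and -0.09 ± 0.20 SE, and Rps4l and Rps4x of -0.03 ± 0.14 SE and -0.08 ± 0.24 SE. None of these 8 genes passed limma's test (adjusted p 0.44 to 0.98). The muscle form Rpl3l lay below the filter, at -0.15 to 3.71 over the 6 arrays, and so did Rpl39l, at 3.01 to 4.16, while Rpl39 had a difference of 0.09 ± 0.35 SE. Rps16, by its only single-symbol probe set, and Rps15a-ps6 were the other 2 members below the filter. A weak signal belongs to the probe set used and does not show that little mRNA of the gene was present. Probe sets with several symbols were not used for single genes. The cytoplasmic family has many processed pseudogenes and near-identical copies. For 13 of its 50 genes the brightest probe set ends in _x_at, which Affymetrix gives to probes that may also match other sequences. For Rpl22 and Rps9 it ends in _s_at, given to probes shared between transcripts. Signals of single cytoplasmic genes may therefore include those of copies.

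Mrps34, a protein of the small mitochondrial subunit whose loss impairs mitochondrial translation in mice and causes Leigh syndrome in humans, was the called member. It read 7.93, 7.75 and 8.09 in Cre-labelled lungs and 8.78, 8.57 and 9.07 in control-labelled lungs, so every Cre-labelled lung lay below every control-labelled lung. The log2 difference was -0.88 ± 0.15 SE, a 1.84-fold lower signal (adjusted p = 0.016 in limma). The array had 1 single-symbol probe set for this gene, so no other probe set could be compared. The call was lost without Cre-labelled replicate 1 (limma adjusted p = 0.051), without control-labelled replicate 1 (0.054), without the intensity trend (0.072) and with the cardiac marker mean as a covariate (0.072), while the difference stayed between -1.0 and -0.74 in all 18 alternatives.

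The other small-subunit genes of the mitochondrial ribosome lay close to 0. Over its 29 genes the median log2 difference was 0.05, and 26 differed by less than 0.2. Mrps7, which lies in the head of the small subunit, read 8.0, 8.12 and 7.95 in Cre-labelled lungs and 8.21, 8.20 and 8.43 in control-labelled lungs, with groups that did not overlap (-0.26 ± 0.11 SE, limma adjusted p = 0.23). Mrps14, which had the highest signal of the mitochondrial members, read 10.87 ± 0.11 in Cre-labelled and 10.70 ± 0.11 in control-labelled lungs (SD, n = 3 each; difference 0.17 ± 0.11 SE, limma adjusted p = 0.44). Its groups did not overlap, although the closest values lay side by side.

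The large mitochondrial subunit had a median log2 difference of -0.00 over 47 genes, with 23 means higher and 24 lower, and none was called. By the brightest probe sets, the groups lay apart for 4 of its genes in the higher and 3 in the lower direction. Over the whole mitochondrial set this held for 5 of 76 in each direction, again below the 13.3% and 12.8% of all tested probe sets. Mrpl47 had the highest difference of the set. It read 8.60, 8.62 and 8.45 in Cre-labelled lungs and 8.35, 8.17 and 7.84 in control-labelled lungs (0.44 ± 0.14 SE, limma adjusted p = 0.12), but its other tested probe set, with a weaker signal, gave -0.19 ± 0.21 SE.

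Mrpl13 lay higher in Cre-labelled lungs by each of its 4 probe sets. Its brightest probe set read 10.31, 10.42 and 10.32 in Cre-labelled lungs and 10.05, 10.25 and 10.05 in control-labelled lungs (0.23 ± 0.10 SE, limma adjusted p = 0.24). The other 3 gave log2 differences of 0.48, 0.63 and 0.71, and in each of the 4 the groups did not overlap (limma adjusted p 0.074 to 0.24). When the probe sets of each gene were averaged before the fit, Mrpl13 had a difference of 0.51 and passed with a limma adjusted p of 0.038. Mrpl28 read 8.89, 9.12 and 8.87 in Cre-labelled and 8.78, 8.74 and 8.66 in control-labelled lungs (0.23 ± 0.10 SE, limma adjusted p = 0.26), and its other 2 probe sets gave 0.04 and 0.02. Mrpl35 differed by 0.12 ± 0.09 SE.

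Mrpl9 lay lower in Cre-labelled lungs by each of its 3 probe sets. The brightest read 6.39, 6.23 and 6.83 in Cre-labelled lungs and 6.89, 7.02 and 7.40 in control-labelled lungs (-0.63 ± 0.20 SE, limma adjusted p = 0.12), a second gave -0.81 ± 0.21 SE (limma adjusted p = 0.066), and in both the groups did not overlap. The third gave -0.35 ± 0.23 SE with overlapping groups. Mrpl27, whose bacterial counterpart reaches toward the peptidyl transferase centre, was named after its values were seen: it read 6.71, 7.01 and 7.57 in Cre-labelled and 7.52, 7.54 and 8.57 in control-labelled lungs (-0.78 ± 0.30 SE, limma adjusted p = 0.19), with 1 Cre-labelled value above the lower 2 controls. Without control-labelled replicate 3 its difference was -0.43, and without the other arrays in turn it lay between -1.01 and -0.59. Mrpl4, a protein near the exit tunnel in related ribosomes, had a difference of -0.23 ± 0.11 SE, and Mrpl44, which has a ribonuclease III fold, one of -0.16 ± 0.09 SE, both with groups that did not overlap. The brightest large-subunit members, Mrpl39, Mrpl23, Mrpl51 and Mrpl24, had differences of 0.05, 0.02, 0.11 and -0.07 and overlapping groups.

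**Figure D4:**
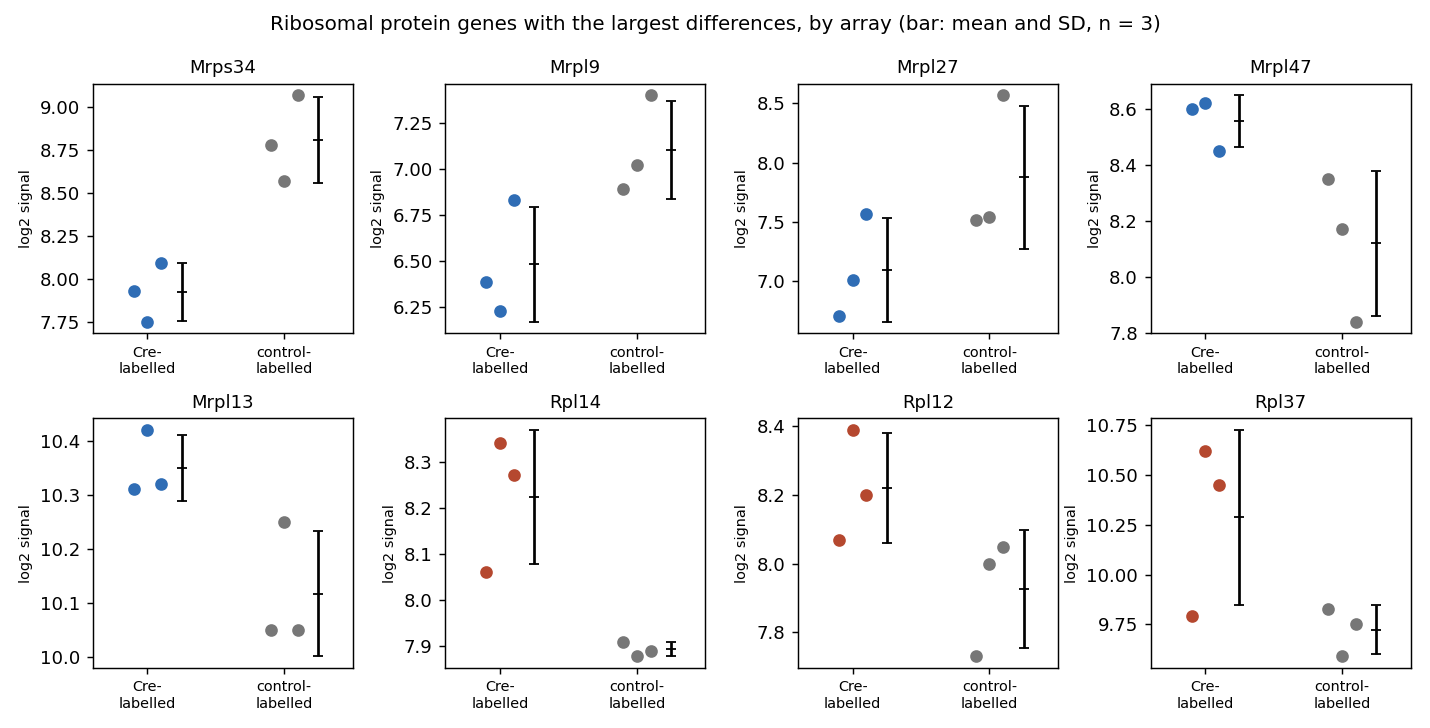
Log2 signal (y axis) on each array for 8 ribosomal protein genes (mitochondrial in blue, cytoplasmic in red, control-labelled lungs in grey), with the mean and SD of 3 arrays; each panel has its own y range. The groups lie apart for Mrps34, Mrpl9, Mrpl47, Mrpl13, Rpl14 and Rpl12 and overlap for Mrpl27 and Rpl37.

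Subunits and partner proteins that the symbol rule does not reach gave similar values. Fau and Rpsa, of the small cytoplasmic subunit, had log2 differences of -0.13 ± 0.23 SE and 0.07 ± 0.20 SE by their brightest probe sets. When the probe sets of each gene were averaged before the fit, Rpsa differed by 0.64 and passed with a limma adjusted p of 0.020. Of 6 tested mitochondrial genes with other names, not all of which encode subunits, none was called. Oxa1l, which inserts new proteins into the inner membrane and is no ribosomal subunit, had -0.34 ± 0.11 SE (limma adjusted p = 0.13). Chchd1 had 0.26 ± 0.10 SE (limma adjusted p = 0.21).

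Calls were found among the genes that assemble the cytoplasmic ribosome. Of 57 tested assembly and nucleolar genes 3 were called, all higher, beside 1.41% of all tested probe sets. At an unadjusted p of 0.05 in limma 15 were higher and 2 lower, beside 9.5% and 9.97% of all tested probe sets. The groups lay apart for 21 in the higher and 2 in the lower direction, beside 13.3% and 12.8%. Means were higher in Cre-labelled lungs for 46, and the median log2 difference was 0.17 against 0.00 over all tested probe sets. Nop56, a core protein of box C/D particles that guide rRNA methylation, read 9.31, 9.38 and 9.20 in Cre-labelled lungs and 8.66, 8.87 and 8.69 in control-labelled lungs (0.55 ± 0.10 SE, limma adjusted p = 0.023). Gar1 and Dkc1 belong to the box H/ACA particles that guide pseudouridylation, and Dkc1 is the pseudouridine synthase. Gar1 differed by 0.52 ± 0.10 SE (limma adjusted p = 0.027) and Dkc1 by 0.73 ± 0.16 SE (0.040), with groups that did not overlap for any of the 3. The calls held in 10 of 18 alternatives for Nop56, 7 of 17 for Gar1 and 6 of 18 for Dkc1, and with probe sets of the endings shared between transcripts left out Dkc1 differed by -0.07. Without 1 array, Nop56 was called in 2 of 6 fits, those without Cre-labelled replicate 3 or control-labelled replicate 2, and Gar1 and Dkc1 in 0 of 6.

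At a share near the 3.56% of all tested probe sets, 1 of 36 tested genes that control ribosomal protein mRNAs and growth was called. This was Mycn, a Myc family factor of embryonic lung progenitors, which read 8.09, 8.23 and 7.76 in Cre-labelled lungs and 7.42, 7.41 and 7.02 in control-labelled lungs (0.74 ± 0.16 SE, limma adjusted p = 0.039). The call held in 8 of 18 alternatives and in 1 of 6 fits without 1 array, and the mean over its probe sets differed by -0.20. Tfam, which packages and transcribes mitochondrial DNA, had 0.39 ± 0.13 SE (limma adjusted p = 0.13). The median of the list was 0.06.

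The remaining translation machinery had no called gene in limma as fitted, and 3 of its genes named here passed under some alternatives. The unnamed genes of these lists were not followed through the alternatives. The 39 tested cytoplasmic translation factors had a median log2 difference of 0.06, with 2 higher and 0 lower at an unadjusted p of 0.05, and the lowest adjusted p belonged to the termination factor Gspt1 (0.34 ± 0.09 SE, 0.067), which passed in 1 of 18 alternatives; the initiation factor subunit Eif3a had 0.32 ± 0.12 SE. The 27 tested mitochondrial translation factors and tRNA synthetases had a median of 0.09, with 3 higher and 0 lower at an unadjusted p of 0.05; Guf1, a mitochondrial elongation factor, had 0.53 ± 0.15 SE (limma adjusted p = 0.097) and Slirp, which with Lrpprc stabilises mitochondrial mRNAs, 0.25 ± 0.09 SE (0.16). The 26 tested mitochondrial ribosome assembly genes had a median of 0.12, with 5 higher and 1 lower at that p; Rcc1l, an assembly factor of the small and large mitochondrial subunits, had 0.71 ± 0.18 SE (limma adjusted p = 0.061) and Mpv17l2 -0.64 ± 0.17 SE (0.068). Rcc1l passed in 4 and Mpv17l2 in 3 of 18 alternatives. Of all tested probe sets, 9.5% were higher and 9.97% lower at an unadjusted p of 0.05. Beside these lists, 10 of 18 tested proliferation genes were called, against 1.41% of all tested probe sets called higher. The median of the 18 was 0.48, and all 10 called genes were higher in Cre-labelled lungs. These were the replication helicase genes Mcm2, Mcm3, Mcm4, Mcm5 and Mcm7 and the cell cycle genes Top2a, Mki67, Bub1, Ccna2 and Aurka, with log2 differences from 0.44 for Mcm7 to 0.67 for Mcm4. Without 1 array, Mcm3 and Mcm4 were called in 4 of 6 fits, Top2a, Mcm2, Bub1 and Mcm5 in 1 of 6, and Mki67, Mcm7, Ccna2 and Aurka in 0 of 6. The part of proliferation in the assembly genes was not tested.

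**Figure D5:**
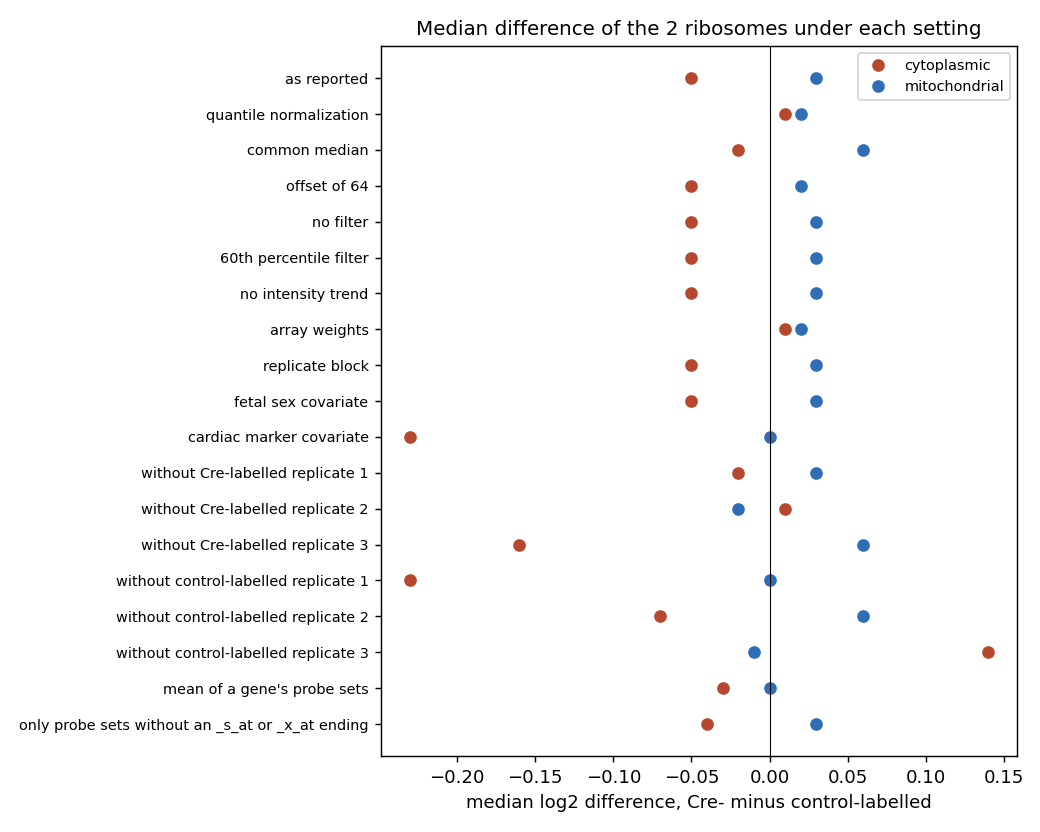
Median log2 difference (Cre-labelled minus control-labelled, x axis) of the cytoplasmic (red) and mitochondrial (blue) genes as reported and under each alternative setting (rows). The cytoplasmic median ranges from -0.23 to 0.14, with both ends reached by leaving out a control-labelled array and the lower end also with the cardiac covariate, and the mitochondrial one from -0.02 to 0.06.

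The median of the cytoplasmic genes rested on single control-labelled arrays. Without control-labelled replicate 3 it was 0.14, without replicate 1 it was -0.23, and under quantile normalization it was 0.01. The mitochondrial median was -0.01, 0.00 and 0.02 under the same settings.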

How the data were processed

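Values were the authors' deposited log2 signals of 6 arrays, used unchanged; MAS5 and affy are named in the submitters' processing notes. No source used here describes the scaling, but the mean linear signal without the top and bottom 2% of probe sets was 149.43 to 149.62 on the 6 arrays. The deposited arrays thus share a common trimmed mean. Of 45101 probe sets, 64 controls were left out; 34945 had 1 gene symbol in the platform annotation, 932 several and 9160 none. Probe sets whose mean over 6 arrays reached the 40th percentile (27022) went into limma (version 3.58.1, R 4.3.3; lmFit and eBayes with intensity trend, two-sided, no covariate) with Benjamini-Hochberg adjustment over all of them; the fit was tested on simulated data. A gene stood by its probe set with the highest mean. Named were called members, members whose groups did not overlap, the 5 brightest of each ribosome, l-type paralogs with their parents, called list genes and, of each list other than the markers, the 2 genes with the smallest p; others are marked as named later. Lists held 4 to 58 genes. Members and lists were chosen with earlier results of these data known. The p-values measure the spread between these 6 animals' arrays, whose number limits precision. Figures were drawn with matplotlib 3.10.9. Promoters came from RefSeq (GRCm38.p6). The choices varied were normalization, offset, filter, intensity trend, array weights, block, covariates, threshold, probe set of a gene and each array left out. Fetal sex is not in the labels and was read from whether Xist or Eif2s3y had the higher signal. By this, Cre-labelled array 2 and control-labelled array 1 were female and the other arrays male.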

Additional observations from a re-analysis of the deposited data

How the results depend on the processing

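No cytoplasmic gene was called in any of the 13 alternatives with all arrays, and leaving out 1 array gave 0 to 1 (Rpl37, without Cre-labelled replicate 1). The count of called mitochondrial genes was 1, and became 0 without the intensity trend and 0 with the cardiac covariate; with averaged probe sets it was 2 (Mrpl13 and Mrps34), and without 1 array 0 to 1. The labels do not say whether equal replicate numbers pair the arrays. Correlations of deviations were -0.01, 0.20 and 0.14 for equal numbers and -0.27 to 0.14 for unequal ones. For Cre-labelled arrays 2 and 3 the equal number gave the highest value, and for array 1 control-labelled array 3 did. Pairing was not tested further. With the replicate block 3 mitochondrial genes were called (Mrpl27, Mrpl9 and Mrps34). Over all probe sets, 963 calls became 171 without the intensity trend, 587 with fetal sex, 313 with the cardiac covariate, 2120 at an adjusted p of 0.10, 1309 with the replicate block and 314 to 495 without 1 array; higher calls were 263 of 647 with a common median and 560 of 1270 after quantile normalization, against 380 of 963. The medians of both ribosomes moved by less than the spread between arrays in every setting. The following signs turned, none of them as a call and with causes not tested. Quantile normalization gave Rps29 0.03, Rpl13a 0.10, Rps3a1 0.06, Rps10 0.01 and Rps27l 0.00. A common median gave Rpl13a 0.03, Rps3a1 0.00, Rps4l 0.00 and Rps27l 0.02. Array weights gave Rpl13a 0.04, Rps3a1 0.00, Rpl22l1 0.01, Rps27l 0.03 and Rps27 0.14. The cardiac covariate gave Mrpl23 -0.03 and Rpsa -0.04. Averaged probe sets gave Rpl13a 0.10, Mrpl47 -0.37, Mrpl51 -0.18, Rpl22 0.00, Rps27l 0.04 Mycn -0.20 and Rps6 -0.03, and leaving out shared endings gave Dkc1 -0.07. Without 1 array the ranges that crossed 0 were -0.20 to 0.18 for Rpl13a, -0.21 to 0.14 for Rps3a1, -0.21 to 0.00 for Mrpl24, -0.12 to 0.09 for Rps27l, -0.30 to 0.14 for Rps29, -0.27 to 0.15 for Rps10, -0.07 to 0.09 for Mrpl23, -0.30 to 0.16 for Rps4x, -0.01 to 0.11 for Mrpl39, -0.26 to 0.48 for Rpl39, -0.11 to 0.11 for Rps4l, -0.09 to 0.26 for Rpsa, -0.41 to 0.10 for Rpl38, -0.26 to 0.10 for Rpl7, -0.23 to 0.14 for Rpl22l1, -0.29 to 0.04 for Rpl22, -0.53 to 0.33 for Rps27 and -0.33 to 0.14 for Fau.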
